A study of Mus musculus with 15 samples.

Results

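Within the miR-210 knockout (KO) libraries of PDGFRβ-positive mouse brain cells, 4 libraries carried many neuronal transcripts and 4 carried few, and the 2 sets of 4 were compared gene by gene. PDGFRβ, a receptor for platelet-derived growth factor, is the surface protein by which the cells were isolated. The study held 15 libraries: 4 from KO sham mice, 4 from KO mice 24 h after neonatal hypoxia-ischemia (HI, a combined loss of oxygen and blood flow to the newborn brain), 3 from wild-type (WT) sham mice and 4 from WT mice 24 h after HI. Strain, age, sex and the way in which miR-210 was removed are not given in the sources used here, nor is it said whether replicates came from separate animals or how many were pooled, so spreads between libraries may be technical. The rule took KO sham 1, KO sham 3, KO HI 2 and KO HI 3 as the high libraries and KO sham 4, KO sham 6, KO HI 1 and KO HI 4 as the low ones, 2 sham and 2 HI libraries a side, which is 8 of the 15 libraries. The sides were chosen from neuronal transcript levels in the same table, so the high against low differences below are a description and carry no p-value. Values of single genes are counts scaled to the normalized library size (CPM). Values per library are given for the high libraries in the order KO sham 1, KO sham 3, KO HI 2, KO HI 3 and for the low libraries in the order KO sham 4, KO sham 6, KO HI 1, KO HI 4.

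PDGFRβ marks the mural cells of brain vessels, that is pericytes and smooth muscle cells, and the fibroblasts around larger vessels and in the meninges. These cells sit on the endothelial tube and are wrapped by astrocyte endfeet, with neurons, oligodendrocytes and microglia close by, while the choroid plexus, which makes cerebrospinal fluid, is a separate epithelium around a vascular core. Each of these cell types has transcripts that the others make little of: Snap25 for the synaptic release machinery, Mbp for myelin, Slc1a2 for astrocytic glutamate uptake, Ttr for choroid plexus epithelium. Bulk RNA gives the sum over all cells of a preparation, and in it fewer cells of a type cannot be told apart from less RNA per cell.

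Total expected counts ran from 15436376 in KO sham 1 to 18118697 in KO HI 1. No 2 libraries were duplicates: pairs of one group differed by 46.4 to 400 chi-square units per degree of freedom among KO libraries and by 11.7 to 48.7 among WT libraries. In KO sham 4 the 4 Y-linked genes Ddx3y, Eif2s3y, Kdm5d and Uty lay between 0 and 0.174 CPM, and in the other 7 KO libraries between 7.10 and 67.4 CPM, so KO sham 4 stands apart in that respect on the low side. KO sham 4 also had the fewest genes with at least 10 counts, 13776.

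The 3 marker genes of the rule set the scale. Snap25, a core protein of synaptic vesicle fusion, stood at 87.9, 15.2, 11.9 and 43.8 CPM in the high libraries and at 0.289, 1.21, 0.113 and 0.838 CPM in the low ones, with 0.282 to 5.42 CPM in WT. Neurod6, a transcription factor of cortical and hippocampal excitatory neurons, was at 10.4, 1.47, 1.496 and 6.96 CPM against 0.0579, 0.164, 0.0565 and 0.0559 CPM, the latter being 1 to 3 reads per library. Mog, a protein of the outer face of myelin, was at 9.66, 1.81, 0.863 and 3.57 CPM against 0.116, 0, 0.113 and 0.224 CPM, and 0 reads in KO sham 6 allow up to 0.164 CPM. In all 3 genes KO sham 1 was the highest library and KO HI 3 the second. Over the 12 pan-neuronal genes the mean log2(CPM + 1) was 6.55, 4.35, 4.26 and 5.94 in the high libraries. Among the low libraries KO sham 6 was nearest to them at 2.74, and the other low libraries were at 2.21, 2.09 and 1.88. One WT library, WT sham 2, lay between the sides at 3.49, and the other 6 WT libraries at 2.11 to 2.59. The low libraries overlapped the WT ones and the high libraries did not.

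Of 14613 genes tested, 1560 (10.7%) were higher in the high libraries, meaning that all 4 high libraries lay above all 4 low ones and the fitted difference was at least 2-fold, and 129 (0.883%) were lower by the same criterion. At any size of difference, 2170 genes (14.8%) were higher without overlap and 1597 (10.9%) lower. The excess was thus large in single genes and the shortfall was small in single genes: 1114 genes were higher by at least 4-fold, 339 by at least 16-fold and 34 by at least 64-fold, whereas 32 were lower by at least 4-fold, 5 by at least 8-fold and 0 by at least 16-fold. The median difference over all tested genes was -0.095 on the log2 scale. Leaving out 1 library at a time kept the count of higher genes between 1447 and 1915. The count of lower genes was less stable, at 392, 314 and 196 when KO sham 3, KO HI 1 or KO sham 4 was left out. Without both KO sham 3 and KO HI 2, 2313 genes were higher and 858 lower, so that 72.9% of the counted genes were higher, against 92.4% with all libraries. Without KO sham 1 and KO HI 3 instead, 1532 were higher and 168 lower. With fewer libraries to clear, the no-overlap criterion is easier to meet, so counts can rise for that reason alone.

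The 1560 higher genes took 21.96%, 10.1%, 12.9% and 12.3% of all counts in the high libraries. In the low libraries they took 1.997%, 3.40%, 2.69% and 2.28%, and in WT 2.26% to 4.38%. These shares have 95% Wilson intervals of at most 0.0207 percentage points to either side, which cover counting error only. If every other gene gave way evenly, a gene outside the set would differ by -0.32, -0.11, -0.16 and -0.15 log2 units in the 4 high libraries. Of the higher genes, 1194 (76.5%) lay above all 7 WT libraries in all 4 high libraries, and for 1365 (87.5%) the median of the low libraries fell within the WT range. These genes were already chosen for high libraries above low ones, and the shares over all tested genes were not computed. Both counts also set KO against WT libraries, so they only describe the chosen genes.

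**Figure D1:**
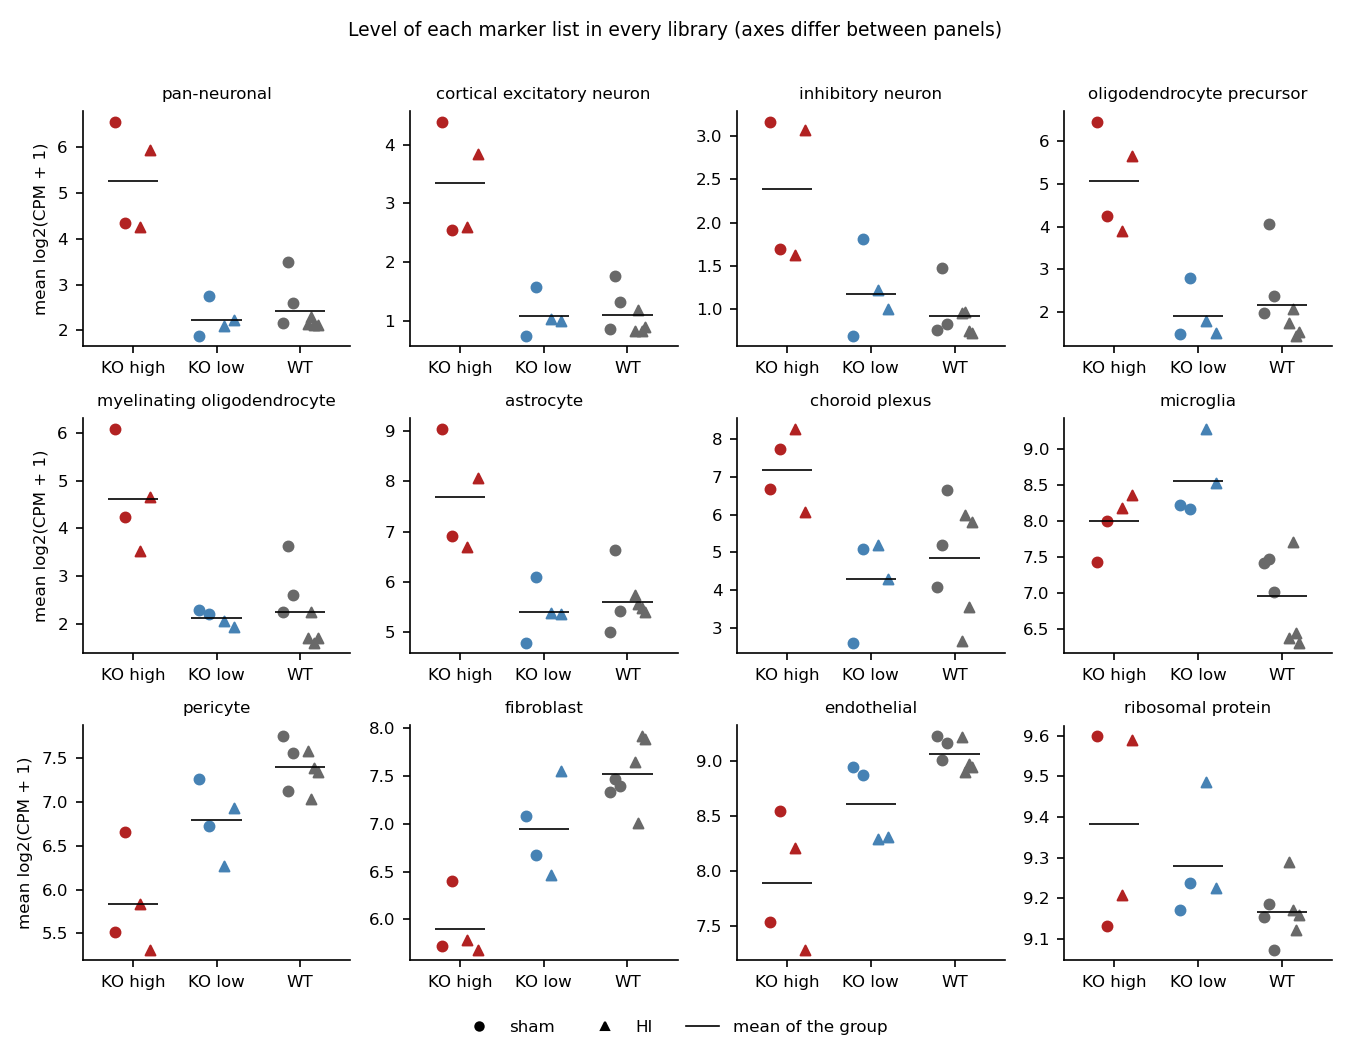
Mean log2(CPM + 1) of 12 marker lists (y axes, which differ between panels) in the 4 high KO, 4 low KO and 7 WT libraries, with circles for sham, triangles for HI and a line at the mean of each set. Pan-neuronal levels of 4.26 to 6.55 in the high libraries lie above the 1.88 to 2.74 of the low ones, while pericyte levels of 5.31 to 6.65 reach below the 6.27 to 7.26 of the low ones.

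The genes with the largest differences are given first, as a description, since the sides were chosen by neuronal transcripts. Of the markers of the rule, Snap25 is on the pan-neuronal list, Neurod6 on the cortical excitatory list and Mog on the myelin list. By list, the median fitted difference was largest for myelin genes (4.89), followed by pan-neuronal (4.37) and postsynaptic genes (4.16). This order depends on the scale. In log2(CPM + 1) the myelin median was 2.68 in sham and 1.76 in HI, below the pan-neuronal one (3.43 and 3.28). The postsynaptic median was 3.28 and 2.97 on that scale. Nrsn1, neurensin 1, a vesicle membrane protein of neurites, was at 241, 41.8, 20.2 and 69.3 CPM against 0.810, 0.932, 0.339 and 0.447 CPM, a log2 difference of 7.12 ± 0.78 (standard error of the fit, as below). Rph3a, the vesicle protein rabphilin, was at 306, 47.6, 34.2 and 118 CPM against 0.752, 2.74, 1.02 and 0.671 CPM (6.58 ± 0.83). Kif5a, a motor of axonal transport, was at 3657, 566, 338 and 1128 CPM against 9.90, 27.1, 11.4 and 7.38 CPM (6.56 ± 0.81). The lowest high library stood above the highest low library by a wide margin in each of these genes, and KO sham 1 was always the top. Nefl, the light neurofilament chain, Ddn, a dendritic protein of the postsynaptic side, and Slc17a7, the vesicular glutamate transporter of cortical excitatory neurons, followed with 6.53 ± 0.84, 6.50 ± 0.71 and 6.42 ± 0.80. The others included Mobp, Eef1a2, Faim2, Rims1, Golga7b, Sowaha, Cdk5r2 and Rims4, at 6.18 to 6.32. Among them Rims1 and Rims4 belong to a family of presynaptic active zone proteins, Cdk5r2 activates the neuronal kinase Cdk5, and Mobp is a myelin protein.

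By list, 10 of 12 pan-neuronal genes were higher by the criterion, with a median log2 difference of 4.37. Map2, the dendritic microtubule protein, was at 1063, 196, 154 and 614 CPM against 24.4, 50.5, 21.7 and 25.4 CPM (4.05 ± 0.67). Uchl1 and Elavl4 were not counted, at 0.81 ± 0.36 for Uchl1 and 1.28 for Elavl4, because their libraries overlapped. Of 15 synaptic vesicle genes 13 were higher (median 3.35), of 14 postsynaptic genes 11 (4.16) and of 15 neuronal ion channel genes 10 (3.29). Camk2a, a postsynaptic kinase whose mRNA is known to be carried into dendrites, was at 1698, 310, 180 and 580 CPM against 9.84, 16.2, 9.49 and 9.50 CPM (5.80 ± 0.71). Shank3, a postsynaptic scaffold that vascular cells also transcribe, was at 384, 151, 135 and 201 CPM against 135, 145, 85.5 and 86.3 CPM and overlapped. Cacna1e went the other way, with 15.7, 20.3, 30.7 and 26.4 CPM against 26.8, 54.9, 31.5 and 54.9 CPM, also with overlap. Not every gene of these lists was thus higher.

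The promoters of the higher genes were searched for a control sequence of neuronal genes, as a description, since the sides were chosen by neuronal transcripts. The RE1 element is bound by REST, a repressor that keeps many neuronal genes silent outside neurons. Promoter windows of RefSeq (build GRCm38.p6, an older build than the authors' mm39, from 250 bases before to 50 bases after the start) were searched on both strands for its letters TTCAGCACC, 2 free bases and GGACAG, a length of 17 bases, with up to 2 mismatches. Of 27025 genes with a window 45 held a match (0.167%), of 11618 tested genes 28 (0.241%), of 1191 higher genes 15 (1.26%) and of 95 lower genes 0. A match is a string of letters and not a measured site, and the search covered only this window. The matches of 4 higher genes with synaptic or axonal products are shown as examples, with 1 mismatch in Syn1, Gria2 and Sptbn4 and 2 in Rph3a, and with the match in capitals, 5′ to 3′ on the strand of the match.
Syn1: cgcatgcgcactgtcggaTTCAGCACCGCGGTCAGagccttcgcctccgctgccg
Gria2: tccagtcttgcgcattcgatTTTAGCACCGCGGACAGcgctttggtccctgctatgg
Sptbn4: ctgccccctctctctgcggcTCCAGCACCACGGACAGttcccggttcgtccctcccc
Rph3a: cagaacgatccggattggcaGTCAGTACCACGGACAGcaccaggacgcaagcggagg
In GRCm38.p6 the stretch of Syn1 lies at chrX:20921114-20921168 on the minus strand, that of Gria2 lies at chr3:80802969-80803025 on the plus strand, that of Sptbn4 lies at chr7:27396260-27396316 on the plus strand and that of Rph3a lies at chr5:121009594-121009650 on the plus strand.
Syn1, which coats synaptic vesicles, was at 103, 18.8, 14.2 and 48.8 CPM in the high libraries and at 1.45, 3.84, 1.69 and 1.397 CPM in the low ones (log2 difference 4.43 ± 0.69). Gria2, an AMPA receptor subunit, was at 46.8, 9.01, 8.80 and 28.2 CPM against 0.463, 4.28, 0.904 and 1.29 CPM (3.79 ± 0.82). Sptbn4, the spectrin of axon initial segments and nodes, was at 59.5, 9.81, 7.94 and 29.1 CPM against 0.521, 1.59, 0.508 and 0.503 CPM (5.09 ± 0.77). The order of the 4 high libraries was the same in Syn1, Gria2, Sptbn4 and Rph3a: KO sham 1, KO HI 3, KO sham 3, KO HI 2.

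Among neuron subtypes, cortical excitatory genes had the most counted members. That list also had the most tested genes and holds the rule marker Neurod6, so the counts do not rank the subtypes. Over all tested genes 10.7% were higher. Of 13 cortical excitatory genes 10 were higher (median 3.20). Slc17a7 was at 183, 31.9, 21.5 and 94.5 CPM against 0.810, 1.64, 0.791 and 0.559 CPM. The cortical transcription factors Neurod2 (5.17 ± 1.02) and Tbr1 (4.86 ± 0.88) were higher as well, while Fezf2 (2.45) and Emx1 (2.85) overlapped. Of 11 tested inhibitory neuron genes 5 were higher (median 1.97): Gad2, which makes GABA, was at 28.5, 4.76, 4.78 and 21.0 CPM against 0.116, 2.36, 0.791 and 0.726 CPM. Sst, the peptide of one interneuron class, was higher by 4.19 ± 0.99, and Dlx1 (1.86 ± 0.98) and Lhx6 (-0.077 ± 0.21) overlapped. Of 8 tested striatal genes 2 were higher, Ppp1r1b and Rgs9. Ppp1r1b, which encodes the dopamine-regulated phosphatase inhibitor DARPP-32, was at 138, 162, 245 and 69.9 CPM against 2.32, 19.0, 24.4 and 12.5 CPM, with KO HI 2 on top. Of 5 tested hippocampal genes 2 were higher, of 4 thalamic genes 1, of 3 cerebellar genes 1 and of 2 Cajal-Retzius genes 1. No gene of the 15 on the monoaminergic, cholinergic and peptidergic list reached the filter, and their summed share was 0.000105% to 0.000447% of counts in the high and 6.07e-05% to 0.00018% in the low libraries. Lists this small and low tell little about brain regions.

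Of 9 immature neuron genes 7 were higher (median 2.68), but of 8 tested neural progenitor genes only Fabp7 was. Tubb2b, a tubulin of growing neurites, was at 1281, 231, 212 and 772 CPM against 56.0, 163, 90.9 and 74.8 CPM (2.68 ± 0.66). Fabp7, a lipid-binding protein of radial glia and young astrocytes, was at 1278, 197, 184 and 625 CPM against 15.2, 85.7, 23.2 and 21.4 CPM (4.02 ± 0.80). In both, KO sham 6 was the highest of the low libraries. Its level over the tested list was above that of KO sham 4 in the progenitor, immature, inhibitory and Cajal-Retzius lists, where it stood 0.87, 0.88, 0.66 and 0.88 above the mean of those 2 libraries. The same held for the ependymal (1.28), choroid plexus (1.25), oligodendrocyte precursor (0.66), astrocyte (0.65) and pan-neuronal lists (0.43), so it was not particular to young neurons. Without KO sham 6 the progenitor median went from 1.21 to 2.64 and the inhibitory one from 1.97 to 3.08. Leaving out KO sham 1 and KO HI 3 instead took the progenitor median to -0.22 and the inhibitory one to 0.57.

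Glial transcripts were higher as well. Mog, a marker of the rule, is on the myelin list, so the excess of oligodendrocyte genes is a description too. All 12 genes of the oligodendrocyte precursor list were higher (median 3.87). Olig1, a transcription factor of the lineage, was at 519, 80.7, 70.4 and 258 CPM against 3.13, 13.6, 4.35 and 2.79 CPM (5.33 ± 0.83), and Gpr17, a receptor of cells about to differentiate, at 162, 39.3, 22.6 and 106 CPM against 1.16, 6.14, 1.69 and 1.12 CPM (5.11 ± 0.81). Of 14 tested myelin genes 10 were higher (median 4.89). Mbp, myelin basic protein, was at 6422, 887, 416 and 918 CPM against 31.1, 25.4, 40.3 and 21.0 CPM (5.73 ± 0.93). KO sham 1 held several times the level of any other high library. The whole myelin list took 0.846%, 0.154%, 0.0776% and 0.189% of counts in the high libraries, against 0.0151% to 0.0225% in the low libraries.

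Of 16 astrocyte genes 12 were higher and 1 lower (median 2.99). Slc1a2, the main glutamate transporter of astrocytes, was at 7624, 1172, 670 and 1772 CPM against 93.1, 204, 115 and 93.1 CPM (4.22 ± 0.72). Aldoc, an astrocytic glycolytic enzyme, was at 2258, 362, 318 and 947 CPM against 22.7, 94.6, 55.1 and 35.1 CPM (4.15 ± 0.77). Aqp4, the water channel of astrocyte endfeet, was higher by 2.80 ± 0.66. The lower gene was Gjb6, a connexin, at -1.37, and Gja1, the other astrocyte connexin on the list, was at -0.32 with overlap. Both connexins are also transcribed by meningeal fibroblasts, and whether that bears on these values was not tested. Gfap, an intermediate filament of astrocytes, was at 987, 176, 363 and 1806 CPM against 25.5, 90.9, 165 and 99.6 CPM (3.18 ± 0.75), the one astrocyte gene named here that was higher in KO HI 3 than in KO sham 1.

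Choroid plexus transcripts were also higher, in an order of their own. Of 17 genes 15 were higher by the criterion (median 3.18), F5 and Slc13a4 being the exceptions. Ttr, the thyroxine carrier that choroid plexus epithelium secretes, was at 12295, 25554, 51126 and 9818 CPM against 122, 3519, 4240 and 1233 CPM (3.43 ± 1.04). Enpp2, a secreted lysophospholipase, was at 2120, 4362, 5089 and 969 CPM against 110, 411, 617 and 324 CPM (3.16 ± 0.69), and Folr1, the folate receptor of this epithelium, was higher by 3.22 ± 0.92. The list took 1.38%, 3.36%, 6.09% and 1.18% of counts in the high libraries, with KO HI 2 on top. In the low libraries it took 0.0405% to 0.520% and in WT 0.0514% to 1.4%, so that the highest WT library reached the lower 2 of the high ones. Genes of ependymal cells, which line the ventricles next to the choroid plexus, did not separate the sides. Of 10 such genes 0 met the criterion in either direction, with a median of -0.33. Their mean log2(CPM + 1) was 2.11, 3.14, 3.06 and 2.18 in the high and 1.61, 4.17, 3.43 and 2.57 in the low libraries. Among the high libraries it was thus higher in KO sham 3 and KO HI 2, as for choroid plexus.

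**Figure D2:**
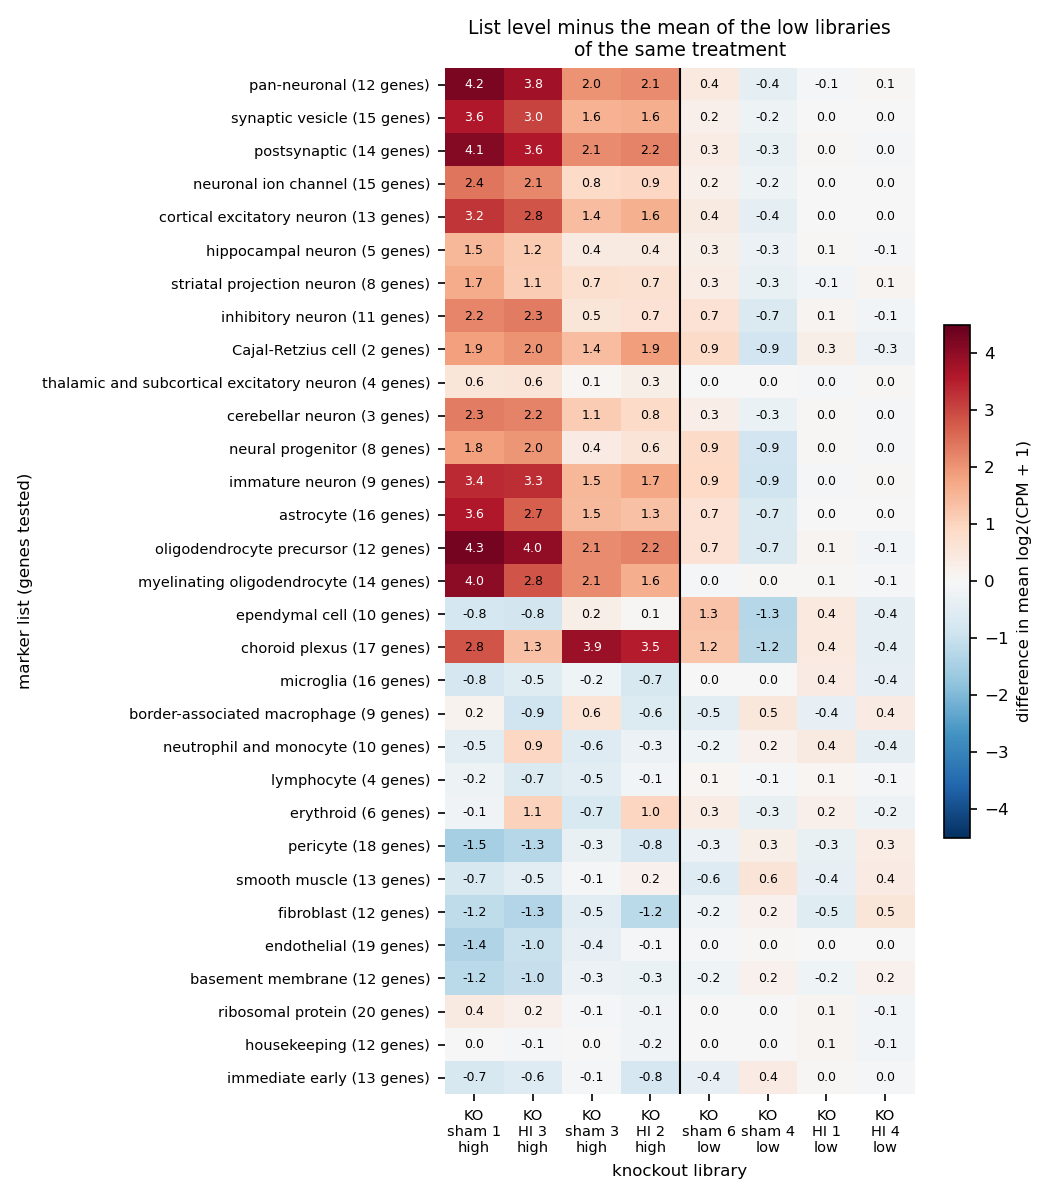
Each cell gives the mean log2(CPM + 1) over the tested genes of a list in 1 KO library minus the mean of the 2 low libraries of the same treatment, so the 2 low libraries of a treatment mirror each other. Pan-neuronal values run from 4.2 in KO sham 1 to 2.0 in KO sham 3, choroid plexus is largest in KO sham 3 and KO HI 2 at 3.9 and 3.5, and pericyte values are below 0 in all 4 high libraries.

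The makeup of the extra transcripts was compared over the members counted as higher. Over 54 genes of the first 5 neuronal lists (pan-neuronal, synaptic vesicle, postsynaptic, ion channel and cortical excitatory), the median ratio of KO sham 1 to KO HI 3 was 1.73, to KO sham 3 it was 5.40 and to KO HI 2 it was 6.39. Over 12 oligodendrocyte precursor genes the ratios were 1.56, 5.49 and 7.07, close to the neuronal ones. Over 12 astrocyte genes they were 2.25, 5.39 and 6.61. Over 10 myelin genes they were 2.97, 5.32 and 11.6, so that both HI libraries held less myelin transcript for their neuronal transcript than KO sham 1 and KO sham 3 did. Over 15 choroid plexus genes they were 1.59, 0.48 and 0.30, so that KO sham 3 and KO HI 2 lay above KO sham 1. With 2 libraries of each treatment on the high side, a difference between sham and HI in this makeup has no test here.

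Among all 1560 higher genes, 785 (50.3%) had the order KO sham 1, KO HI 3, KO sham 3, KO HI 2, and 382 (24.5%) had it with the last 2 exchanged. A further 166 genes (10.6%) had the order KO HI 2, KO sham 3, KO sham 1, KO HI 3, which is that of Ttr and Folr1. The top library was KO sham 1 for 1293 genes and KO HI 2 for 246. Between the pair KO sham 1 and KO HI 3 and the pair KO sham 3 and KO HI 2, 1014 of the tested genes (6.94%) were at least 2-fold higher in the first pair within both treatments, and 141 (0.965%) at least 2-fold higher in the second. Among the largest of the former were Pcdh11x, Lhfpl3, Grin2b, Gfap, Dlx1, Gap43 and Crym. Dlx1 is a transcription factor of inhibitory neurons, Grin2b is the NMDA receptor subunit of young synapses and Gap43 a growth cone protein. Gap43 was at 234, 36.8, 33.0 and 146 CPM in the high libraries, with log2 differences of 2.64 between the sham and 2.12 between the HI libraries of the 2 pairs. The largest of the latter were Kcne2, Dsp, Strip2, Calml4, Ttr, Enpp2, Ttc21a and Spag16. Kcne2, a potassium channel subunit of choroid plexus, was at 57.6, 131, 215 and 36.2 CPM, with differences of -1.17 and -2.54. Dsp, a desmosomal protein of epithelia and of the arachnoid, was at 12.4, 34.4, 47.7 and 9.25 CPM, and its low libraries at 33.3, 19.0, 9.15 and 8.38 CPM overlapped those values. Without KO sham 1 and KO HI 3, the 2 remaining high libraries gave medians of 2.79 for pan-neuronal, 2.55 for oligodendrocyte precursor, 3.49 for myelin and 1.47 for astrocyte genes, smaller than with all 4.

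The high minus low difference was also computed within each treatment. Across the 14613 genes the difference between the sham libraries and that between the HI libraries, which share no library, had Pearson r 0.923 and Spearman rho 0.814, and 82.2% of genes had the same sign. These are correlations across genes, which are not independent replicates, and the rule chose the libraries of both treatments by the same kind of transcript. The pan-neuronal median was 3.43 in sham and 3.28 in HI, on the log2(CPM + 1) scale. It was 3.73 and 2.58 for choroid plexus and 2.68 and 1.76 for myelin. The medians of some lists had opposite signs. The border-associated macrophage median was 0.61 in sham and -0.81 in HI, the erythroid one -0.54 and 1.04, and the neutrophil and monocyte one -0.53 and 0.40. In list level, however, the sides overlapped in sham for the macrophage and erythroid lists and in HI for the neutrophil and monocyte list. These medians thus do not give a direction. The difference between treatments was not tested.

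**Figure D3:**
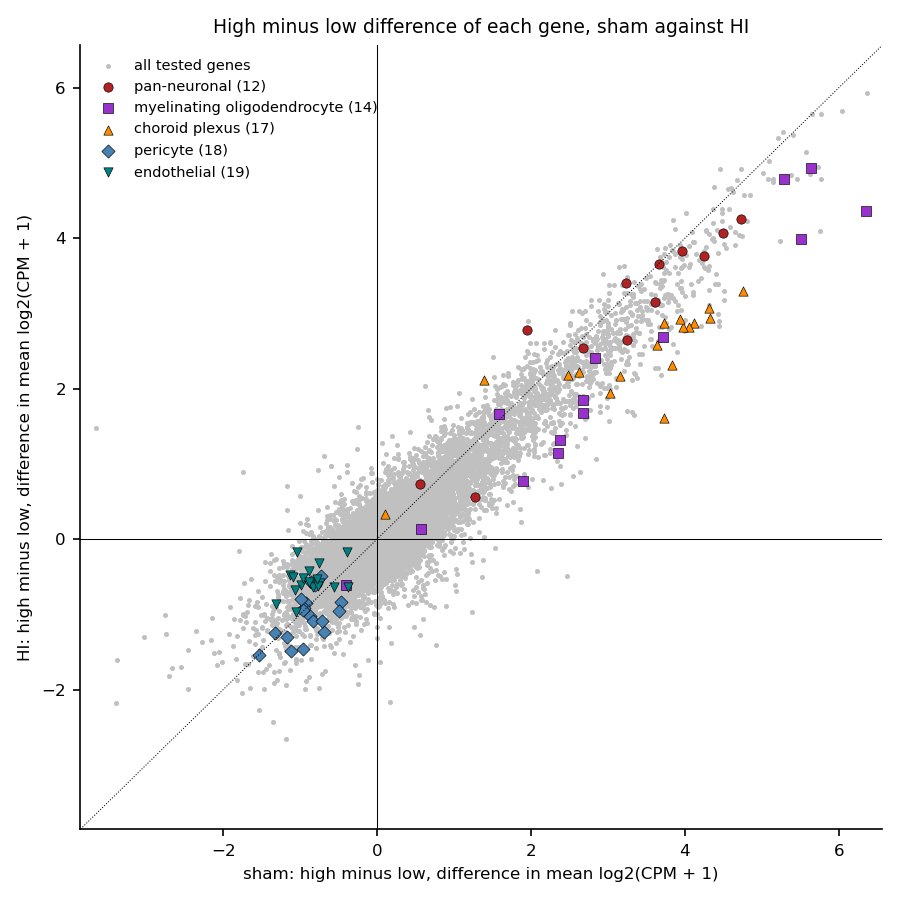
Each point is 1 of the 14613 tested genes, with the high minus low difference in mean log2(CPM + 1) of the sham libraries on the x axis and that of the HI libraries on the y axis, and the dotted line marks equal differences. Pan-neuronal, myelin and choroid plexus genes lie mostly at the upper right, choroid plexus and myelin genes mostly below the dotted line, and all pericyte and endothelial genes at the lower left (r 0.923).

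WT sham 2, a library that the rule did not use, was also described. It was the WT library with the highest pan-neuronal level, so higher neuronal genes in it follow from that and are no separate support. In WT sham 2, 1322 of the 1560 higher genes (84.7%) lay above the mean of WT sham 1 and WT sham 3, with a median difference of 0.45 against 0.0030 over all tested genes on the log2(CPM + 1) scale. Its oligodendrocyte precursor median was 1.98, its astrocyte median 1.75, its myelin median 1.26 and its pan-neuronal median 1.14. Its choroid plexus median was -0.16, where the mean level of the list was 5.21 in WT sham 2 and 4.08 and 6.66 in WT sham 1 and 3, so that WT sham 2 lay between them. Snap25 was at 5.42 CPM in WT sham 2, against 0.572 and 1.71 CPM in WT sham 1 and 3. Of the 129 lower genes 58 (45.0%) lay below the mean of the other 2 WT sham libraries. Over all tested genes, 62.0% had the same sign in WT sham 2 as in the high minus low difference. Here 1 library stands against 2, with no test.

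Of the 129 lower genes 8 were on one of the lists, and the largest differences lay outside the lists of vessel cells. The 15 largest lower differences were in Cdh1, Fat2, Itgbl1, Mpzl2, Serpind1, Crabp2, Ptgds, Igfbp6, Slc6a12, Sphk1, Smoc2, Aox3, Arsi, Itih2 and Eya2, from -3.64 to -2.08. Cdh1, the adhesion protein E-cadherin, which in the brain's coverings marks arachnoid barrier cells, was at 1.24, 3.34, 3.57 and 6.77 CPM in the high libraries and at 15.3, 64.6, 7.06 and 89.3 CPM in the low ones (-3.64 ± 0.88). Ptgds, the prostaglandin D synthase made in large amounts by the leptomeninges, was at 77.0, 235, 337 and 379 CPM against 864, 2294, 568 and 2098 CPM (-2.62 ± 0.63). Crabp2, a retinoic acid binding protein of meningeal fibroblasts, was at 1.10, 1.59, 5.93 and 5.44 CPM against 7.93, 26.4, 7.23 and 30.2 CPM (-2.63 ± 0.67), and Igfbp6 at 0.951, 2.15, 7.54 and 10.1 CPM against 14.5, 25.3, 11.1 and 47.0 CPM (-2.62 ± 0.63). In each of these 4 genes KO sham 6 and KO HI 4 were the 2 highest low libraries and KO HI 1 the lowest. Itih2, a hyaluronan-binding chain, was at 7.61, 15.8, 12.1 and 14.8 CPM against 33.6, 46.5, 29.7 and 115 CPM (-2.10 ± 0.45). WT libraries lay at 12.8 to 126 CPM for Cdh1 and at 527 to 2098 CPM for Ptgds. Of the 129 lower genes, 105 (81.4%) lay below all 7 WT libraries in all 4 high libraries, and for 77 (59.7%) the low libraries' median was within the WT range. Both counts only describe genes already chosen for high libraries below low ones, across genotypes and without the shares over all tested genes. The lower genes took 0.116% to 0.290% of counts in the high, 0.399% to 0.959% in the low and 0.637% to 1.11% in the WT libraries.

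Genes of the sorted cell type had mostly negative differences. The numbers that met the criterion stand beside 0.883% of all tested genes that were lower by it. All 18 pericyte genes had negative differences, from -1.42 to -0.63 with a median of -0.93, and 2 met the criterion. Pdgfrb, the receptor used for isolation, was at 251, 496, 272 and 194 CPM against 785, 533, 364 and 596 CPM (-0.93 ± 0.28), and KO sham 3 overlapped KO HI 1. Abcc9 and Kcnj8, the 2 parts of the pericyte ATP-sensitive potassium channel, were the genes counted. Abcc9 was at 30.5, 117, 72.1 and 63.8 CPM against 173, 177, 154 and 260 CPM (-1.42 ± 0.39), and Kcnj8 at 14.4, 43.8, 26.4 and 24.6 CPM against 64.8, 65.5, 48.4 and 78.6 CPM (-1.24 ± 0.33). Of 12 fibroblast genes 11 were negative and 4 met the criterion (median -1.21): Dcn, a collagen-binding proteoglycan, was at 47.2, 103, 56.2 and 56.0 CPM against 178, 164, 116 and 318 CPM (-1.57 ± 0.38). The exception was Pdgfra at 0.15, a receptor that oligodendrocyte precursors carry as well. Of 13 smooth muscle genes none met it (median -0.41). Acta2, the actin of contractile cells, was at 665, 1042, 518 and 291 CPM against 1727, 719, 312 and 503 CPM, a spread as wide within the sides as between them.

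Genes of endothelial cells, which are not sorted for, were negative as well (median -0.64). Of these 19 genes 0 met the criterion, where 0.883% of all tested genes were lower by it. Cldn5, the tight junction protein of brain endothelium, was at 600, 1234, 983 and 521 CPM against 1858, 1925, 1035 and 955 CPM (-0.72 ± 0.30). The list level was 7.29 in KO HI 3, apart from 8.22 to 8.31 in the other KO HI libraries. All 12 basement membrane genes were negative (median -0.83). Fn1, fibronectin, was the gene whose libraries did not overlap, at 2064, 3838, 2661 and 2181 CPM against 6145, 4726, 3959 and 4291 CPM (-0.83 ± 0.24), just short of 2-fold. Without KO sham 3 and KO HI 2 the medians were -1.47 for pericyte and -1.19 for endothelial genes, and without KO sham 1 and KO HI 3 they were -0.56 and -0.21. The difference of the endothelial list thus rested largely on KO sham 1 and KO HI 3, and that of the pericyte list in part.

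The vessel lists were further down in most high libraries than the even values given above. Those even values take only the genes counted as higher as added RNA. Broadly expressed transcripts of the same source are left out, so the even values can understate dilution. Relative to the mean of the low libraries of its treatment, the summed share of the pericyte list was at -1.44 log2 units in KO sham 1 and at -1.32 in KO HI 3, where the even values were -0.32 and -0.15. It was at -0.22 in KO sham 3 and at -0.65 in KO HI 2, where the even values were -0.11 and -0.16. For the endothelial list the values were -1.63, -0.39, -0.066 and -0.97 in KO sham 1, KO sham 3, KO HI 2 and KO HI 3, so that KO HI 2 lay less far down than the even value. For fibroblasts they were -1.54, -0.42, -1.27 and -1.57. Ribosomal protein genes were at 0.40, -0.038, -0.093 and 0.37. What set these differences between lists was not tested.

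Immune cells, red cells and broadly expressed genes were looked at in the same way. All 16 microglia genes were negative (median -0.55, from -0.78 to -0.33), with none counted. Csf1r, the survival receptor of microglia, was at 934, 1428, 1511 and 1517 CPM against 1771, 1523, 2999 and 1710 CPM (-0.56 ± 0.23), without overlap but under 2-fold. The 9 border-associated macrophage genes had a median of -0.22 in the fit over both treatments, with 0.61 in sham and -0.81 in HI on the log2(CPM + 1) scale, and the fitted median was 0.062 without KO HI 3 and 0.11 without KO HI 4. Neutrophil and monocyte genes had a median of -0.090, which ran from -0.78 without KO HI 3 to 0.30 in the leave-one-out fits. Lymphocyte genes had -0.51 over 4 tested, and erythroid genes 0.20, with the caution that the near-identical globin copies Hba-a1 and Hba-a2 can share reads. The 20 ribosomal protein genes had a median of 0.026, which was -0.0089 when libraries were scaled by total counts. Rps2 (0.98 ± 0.37) and Rpsa (0.80 ± 0.36), both with many near-identical processed copies in the genome, stood apart from the others: Rps2 was at 3692, 1295, 1449 and 2712 CPM against 1016, 1100, 1497 and 1037 CPM. Housekeeping genes had a median of -0.20. Immediate early genes, switched on by stimulation and by tissue dissociation, had a median of -0.70, with Fos at 376, 782, 852 and 1045 CPM against 1168, 589, 1673 and 1586 CPM (-0.69 ± 0.29, with overlap). Arc, an immediate early gene of excitatory neurons, was the exception at 17.2, 3.85, 1.67 and 4.29 CPM against 0.695, 1.59, 0.678 and 0.782 CPM (2.63 ± 0.62).

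The HI against sham comparison in the KO libraries was not used by the rule, and each treatment had 2 high and 2 low libraries. It was tested with and without the side in the model (edgeR quasi-likelihood test, Benjamini-Hochberg adjusted over 14613 genes, threshold 0.05). With the side as a covariate 479 genes were called, 440 higher after HI (3.01%) and 39 lower (0.267%). Without it 15 were called, all higher (0.103%, and 0 lower), and all 15 were among the 479. At an unadjusted p under 0.05 the numbers were 2727 and 1902. The biological coefficient of variation was 30.5% with the side and 49.2% without, and the median standard error of a log2 fold change 0.197 and 0.251. The side was itself chosen from transcript levels of these same libraries. Standard errors and adjusted p-values of the fit with the side may therefore be too small. The 479 rests on single libraries: when KO HI 1 was left out it was 0 (1720 genes at an unadjusted p under 0.05), and it was 55 and 62 when KO HI 4 or KO HI 3 was. Leaving out KO sham 4, KO sham 6 or KO sham 1 gave 49, 77 and 206. DESeq2 with the side called 1478 genes and limma-voom 471.

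Among the fixed lists, 8 genes were called with the side and none of the 8 without it. Of 16 microglia genes 6 rose: C1qb, Trem2, C1qa, C1qc, Fcrls and Aif1, with edgeR adjusted p from 0.0183 to 0.0467. C1qb, a chain of the first complement component that microglia make, was at 251, 369, 472 and 465 CPM in KO sham 1, 3, 4 and 6 and at 1537, 654, 933 and 1036 CPM in KO HI 1 to 4. Each HI library was above each sham library, and within each treatment the low libraries were above the high ones. Its log2 fold change was 1.41 ± 0.21 with the side (edgeR adjusted p = 0.0183) and 1.42 ± 0.31 without (edgeR adjusted p = 0.104). Trem2, a lipid receptor of reactive microglia, was at 53.7, 76.4, 95.2 and 125 CPM and at 323, 138, 171 and 211 CPM, with 1.26 ± 0.20 (edgeR adjusted p = 0.0204) and 1.27 ± 0.34 (edgeR adjusted p = 0.159). The size of the change was nearly the same in both fits and the standard error was smaller with the side. The homeostatic microglia genes P2ry12 and Tmem119 were at -0.34 ± 0.29 and -0.061 ± 0.29 and did not pass the test. Each of the 6 calls was lost when KO HI 1, KO HI 3, KO HI 4, KO sham 4 or KO sham 6 was left out, and 5 of them when KO sham 1 was.

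The other called list genes were S100a8, a calcium-binding protein of neutrophils (3.53 ± 0.70, edgeR adjusted p = 0.0435), and Gusb, a lysosomal enzyme on the housekeeping list (1.34 ± 0.19, edgeR adjusted p = 0.0177). S100a8 was at 0.585, 0.227, 1.22 and 0.658 CPM in sham and at 8.64, 3.80, 15.0003 and 3.35 CPM in HI. No member of the neuronal, astrocyte, oligodendrocyte precursor, myelin, choroid plexus, pericyte, fibroblast or endothelial lists was called in either fit. The median HI effect with the side was -0.37 for pan-neuronal, -1.15 for myelin, 0.38 for choroid plexus and 0.72 for microglia genes, against -0.052 over all tested genes. The genes called in both fits included Ackr1, the chemokine-binding receptor of venules, Lrg1, a secreted modulator of TGF-β signalling, and Lgals3, a galectin of reactive phagocytes, named here after their values were seen. Ackr1 was at 12.3, 15.9, 18.2 and 13.2 CPM in sham and at 77.0, 70.5, 84.4 and 70.5 CPM in HI, a log2 fold change of 2.34 ± 0.16 in both fits (edgeR adjusted p = 0.00761 with the side and 0.00606 without). Its spread within a treatment was small and did not follow the sides. KO HI 1 was the one library whose removal ended the calls of Ackr1, Lrg1 and Lgals3. The calls of S100a8 and Gusb were lost without KO HI 1, KO HI 3, KO HI 4, KO sham 4 or KO sham 6, and S100a8 without KO sham 1 or KO sham 3.

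**Figure D4:**
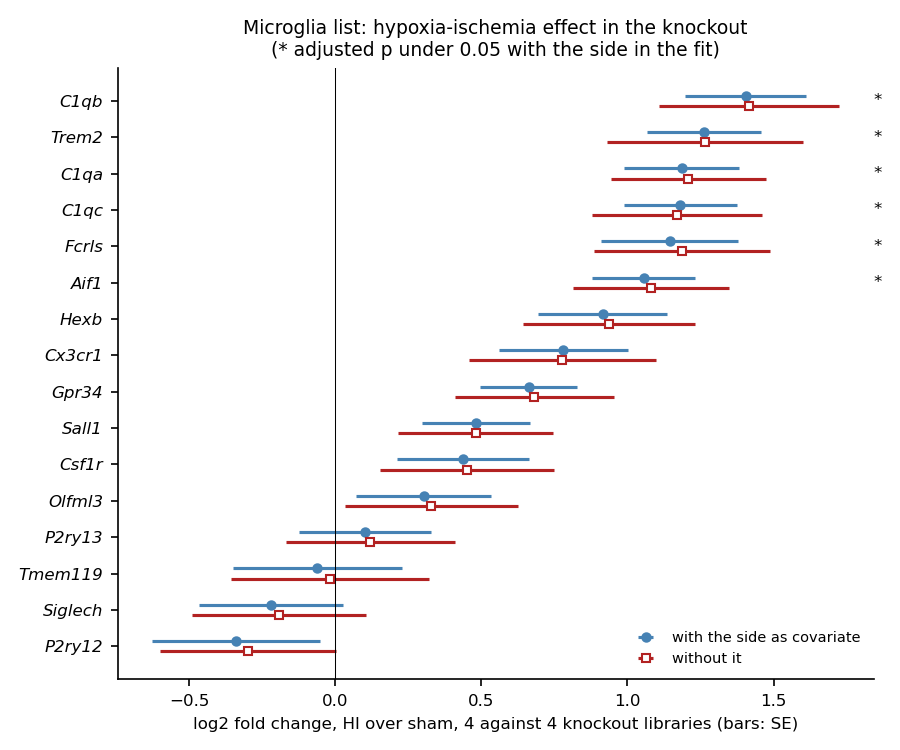
Log2 fold change of HI over sham in the KO for the 16 microglia list genes, 4 against 4 libraries, with the side in the model (filled circles) and without it (open squares), bars being standard errors and asterisks an edgeR adjusted p under 0.05 with the side. The estimates of each gene nearly coincide, as for C1qb at 1.41 and 1.42, and the bars are shorter with the side (0.21 against 0.31 for C1qb).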

How the data were processed

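RNA of PDGFRβ-positive cells was sequenced in 15 libraries by a commercial service after extraction with a column kit, per the labels' protocols. The authors deposited 1 table of expected counts per gene and library that were not normalized. That unit rests on the share of values that were not whole (3.12% to 3.92% per library) and on RSEM 1.3.1 being named in the submitters' processing notes. The notes also name HISAT2 2.1.0, Bowtie2 2.4.4, Bowtie, DESeq2 1.4.5 and the build mm39, and the part each played is not given in the sources used here. Of 65535 lines 17892 held values and 17862 were matched to a symbol. The other 47643 lines gave no value in any library, and those genes were not analysed here.

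Counts were rounded, and 14613 genes passed filterByExpr in edgeR 4.0.16 (R 4.3.3). Library sizes were scaled with TMM over all 15 libraries. Log2 differences came from glmQLFit with side and treatment over the 8 KO libraries, and HI against sham was tested with glmQLFTest. A gene was counted as higher or lower where the 4 high and 4 low libraries did not overlap in CPM and differed at least 2-fold. List levels are means of log2(CPM + 1), with a pseudocount of 1 that understates differences of low genes. limma 3.58.1 and DESeq2 1.42.0 were alternatives. Depth was 15436376 to 18118697 counts per library, and a count of 0 was bounded with 3 counts per library.

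The sides, the 33 marker lists, the rule for named genes and the alternatives were chosen with earlier results of these data known. Named were the 3 markers, the 15 largest differences each way with at least 10 CPM on the higher side, the 8 largest each way between the pairs of high libraries, and up to 4 members of each list with the highest CPM. List members outside this rule (Neurod2, Tbr1, Fezf2, Emx1, Sst, Elavl4, Aqp4, Gja1, Gjb6, Folr1, F5, Slc13a4, Abcc9, Kcnj8, Pdgfra, Arc, P2ry12, Tmem119) and Syn1, Gria2 and Sptbn4 were named after their values were seen. A few genes that the rule names are not reported here. HI against sham was also run on simulated counts of 14613 genes. With the side, 34% of 100 genes changed 2-fold and 93% of 100 changed 4-fold were recovered, and 13% and 56% without it. Of 132 genes called with the side 5 were unchanged, and of 69 called without it 0. The counts were drawn from the fit that includes the side, which favours that fit. The changed genes were taken only from genes with many counts. The simulation thus does not measure what the side adds in the real data.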

Additional observations from a re-analysis of the deposited data

Results flagged for a closer look

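A library was set apart where its gap to the nearest of its group exceeded Dixon's 95% limit, in groups of 4 libraries. Of 114 such checks 10 passed the limit, and chance gives about 1 in 20.

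WT HI 2 accounted for 6 of them. Its mean log2(CPM + 1) was 2.29 over the pan-neuronal list (2.11 to 2.13 in the other WT HI libraries), 2.80 over the postsynaptic list (2.34 to 2.403) and 2.25 over the myelin list (1.60 to 1.70). It was 7.70 over the microglia list (6.31 to 6.45), 8.38 over the housekeeping list (8.19 to 8.20) and 2.90 over the Y-linked genes (4.68 to 4.92). Neurod6 was at 0.154 on the same scale in WT HI 4 and at 0 in the other 3 WT HI libraries, a difference of 2 reads.

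Among the KO libraries, the endothelial list was at 7.29 in KO HI 3, against 8.22 to 8.31 in the other KO HI libraries. Genes with at least 10 counts numbered 13776 in KO sham 4 and 14317 to 14409 in KO sham 1, 3 and 6. KO sham 1 had a total of 15436376 counts, against 17017223 to 17306041. Whether the lower total of KO sham 1 bears on its neuronal transcripts was not tested.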

How the results depend on the processing

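The counts and list medians were recomputed with total counts or DESeq2 size factors in place of TMM, without the filter, without the treatment term, as differences in log2(CPM + 1), with TMM over the 8 KO libraries and without each library in turn. Added after seeing the data were the fits without KO sham 1 and KO HI 3, without KO sham 3 and KO HI 2, and with TMM over the KO libraries. The lists whose median changed sign under at least 1 of these were the thalamic, neural progenitor, ependymal, border-associated macrophage, neutrophil and monocyte, erythroid, ribosomal protein and sex-linked lists, so no direction is given by their medians. The number of higher genes stayed within 1.5 times of 1560 (1415 to 2313). The number of lower genes was 116 to 392 with 1 library left out and 858 without KO sham 3 and KO HI 2, the cause of which was not tested, and 97 to 168 otherwise, with 168 without KO sham 1 and KO HI 3. Where libraries are left out, the no-overlap criterion is easier to meet, so these counts are not on equal terms with the others.

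On the log2(CPM + 1) scale, where the pseudocount shrinks low genes, medians were smaller for postsynaptic (3.10), ion channel (1.76), cortical excitatory (2.17), hippocampal (1.27), cerebellar (1.07) and myelin genes (2.22). Without the filter, which adds genes of low counts, they were 0.86 for hippocampal, 1.86 for striatal, 3.20 for Cajal-Retzius and 0.81 for thalamic genes. Without KO sham 1 and KO HI 3 they were 2.79 for pan-neuronal, 2.05 for synaptic vesicle, 2.82 for postsynaptic, 1.64 for ion channel, 1.46 for hippocampal, 0.23 for striatal, 0.57 for inhibitory, 1.302 for cerebellar, -0.22 for progenitor, 1.47 for astrocyte, 2.55 for oligodendrocyte precursor, 3.49 for myelin, -0.70 for neutrophil and monocyte and -0.057 for housekeeping genes. Without KO sham 3 and KO HI 2 they were 4.03 for ion channel, 2.98 for hippocampal, 1.87 for striatal, 4.51 for cerebellar, 0.53 for neutrophil and monocyte, -0.78 for lymphocyte, -1.47 for pericyte and -1.19 for endothelial genes. With 1 library left out the medians ran from 2.08 to 3.19 for hippocampal, 0.64 to 1.62 for striatal, 1.21 to 3.08 for inhibitory, 2.02 to 3.07 for Cajal-Retzius, 2.48 to 4.77 for cerebellar, 0.52 to 2.64 for progenitor, -0.78 to 0.30 for neutrophil and monocyte and -0.75 to -0.41 for lymphocyte genes.

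HI against sham called 15 genes without the side term, 1147 with the pan-neuronal level in its place, 2065 with all 15 libraries in the fit, 1478 with DESeq2, 308 with total counts, and 0 to 510 with 1 library left out. The share of called genes that were higher was 91.9% in the fit of the report, 61.8% with the pan-neuronal level, 64.1% with 15 libraries and 72.6% with DESeq2. The cause was not tested. A replicate block on the library numbers left 0 genes called, both without the side (1186 at an unadjusted p under 0.05) and with it (2715), where these fits keep 2 and 1 residual degrees of freedom. The numbers pair nothing that the labels state, and the correlation of deviations between same-numbered libraries was -0.80, 0.16 and 0.82 for numbers 1, 3 and 4. A depth of 15436376 to 18118697 counts limits genes with few reads, such as Mog and Neurod6 in the low libraries.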
